A study of Mus musculus with 4 samples.

Results

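Long intergenic noncoding RNAs (lincRNAs) are transcripts that carry no long open reading frame and mostly lie outside protein-coding genes, though some with this annotation overlap one. The expressed lincRNAs of the mouse small cell lung cancer (SCLC) line RPP631 were selected on their level, as the genes with the annotated biotype lincRNA whose CPM averaged 1 or more over 4 libraries. CPM stands for the count scaled to a fixed library total. Gas5 and the Snhg genes, which host small nucleolar RNAs, were left out, and this removed 4 genes. The rule kept 282 of the 5499 lincRNA genes and of the 54232 genes of all kinds in the count table, and 3245 lincRNA genes had no count in any library. The levels that chose the members are given below as a description only. One group of 2 libraries came from cells kept in DMSO, the vehicle, for 48 h. The other group of 2 libraries came from cells kept for 48 h in 100 nM YKL, which the title of the series calls an inhibitor of CDK7. All 4 libraries came from the 1 line RPP631, whose genotype is not given in the sources used here, and no label tells if replicates were grown apart, so that each p-value measures only the spread between these libraries.

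Most lincRNAs are made by RNA polymerase II, like messenger RNAs, and many are short-lived because the nuclear RNA exosome degrades them. CDK7, a part of TFIIH, phosphorylates the tail of RNA polymerase II at promoters, and it also activates cell cycle kinases. A well studied minority of lincRNAs have known roles, among them Xist, which silences an X chromosome in female cells, Neat1, the scaffold of nuclear paraspeckles, and Malat1, a component of nuclear speckles. Many others start head to head with a protein-coding gene at a CpG-rich promoter that is transcribed in both directions.

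The lincRNA starts that lie within 1 kb of an oppositely oriented protein-coding start formed a group of 53 members, called divergent here. Their starts lay between 13 and 972 bases from the coding start, with a median of 151. This distance limit was chosen after the values had been seen. RefSeq promoter windows of the GRCm38.p6 build, which reach from 250 bases before to 50 bases after a start, were found for 129 of the 282 members and for the coding partners of 44 of the 53 divergent members. The sequences below are windows of 300 bases, written 5′ to 3′ on the strand of the coding gene. Capitals mark the bases from the lincRNA start through the RefSeq start of the coding gene, so that each sequence shows how close the opposite starts lie. Of the pairs whose coding window held both starts, the 2 with the highest and the 2 with the lowest log2 fold change of the lincRNA between YKL and DMSO are shown.
4933406P04Rik / Bclaf1: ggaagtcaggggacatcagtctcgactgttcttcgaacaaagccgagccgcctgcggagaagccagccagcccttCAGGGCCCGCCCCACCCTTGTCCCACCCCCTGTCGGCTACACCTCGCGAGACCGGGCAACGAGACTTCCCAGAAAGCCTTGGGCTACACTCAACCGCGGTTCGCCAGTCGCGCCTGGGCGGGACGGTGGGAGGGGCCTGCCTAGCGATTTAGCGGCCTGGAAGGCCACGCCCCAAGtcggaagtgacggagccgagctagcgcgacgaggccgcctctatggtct
1110006O24Rik / Rab35: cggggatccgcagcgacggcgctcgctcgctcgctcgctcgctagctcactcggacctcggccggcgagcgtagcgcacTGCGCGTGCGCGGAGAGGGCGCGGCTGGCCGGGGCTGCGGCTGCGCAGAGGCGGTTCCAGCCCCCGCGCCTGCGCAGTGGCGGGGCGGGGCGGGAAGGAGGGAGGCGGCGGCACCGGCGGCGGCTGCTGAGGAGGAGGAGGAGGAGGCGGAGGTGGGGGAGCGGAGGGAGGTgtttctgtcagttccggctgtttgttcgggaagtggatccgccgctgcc
2210008F06Rik / Ankrd13b: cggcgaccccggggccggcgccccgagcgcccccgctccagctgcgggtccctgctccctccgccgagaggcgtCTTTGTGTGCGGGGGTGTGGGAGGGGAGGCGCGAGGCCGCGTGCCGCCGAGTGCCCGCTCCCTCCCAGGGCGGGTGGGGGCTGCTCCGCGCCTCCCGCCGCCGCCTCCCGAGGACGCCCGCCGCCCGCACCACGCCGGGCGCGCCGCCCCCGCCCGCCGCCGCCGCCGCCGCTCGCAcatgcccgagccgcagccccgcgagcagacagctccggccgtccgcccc
Gm7160 / Zcchc2: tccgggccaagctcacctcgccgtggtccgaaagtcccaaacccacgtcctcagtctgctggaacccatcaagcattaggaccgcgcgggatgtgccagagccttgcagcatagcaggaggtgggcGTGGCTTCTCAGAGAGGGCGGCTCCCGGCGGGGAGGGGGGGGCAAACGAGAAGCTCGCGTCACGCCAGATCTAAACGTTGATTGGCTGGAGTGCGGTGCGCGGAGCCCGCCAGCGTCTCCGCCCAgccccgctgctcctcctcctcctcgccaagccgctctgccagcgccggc

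The window of 4933406P04Rik and Bclaf1 was chr10:20312219-20312518 on the plus strand, with 175 bases between the starts, and that of 1110006O24Rik and Rab35 was chr5:115631737-115632036 on the plus strand, with 171 bases between them. The window of 2210008F06Rik and Ankrd13b was chr11:77489629-77489928 on the minus strand, with 176 bases between the starts, and that of Gm7160 and Zcchc2 was chr1:105990156-105990455 on the plus strand, with 124 bases between them. All 4 were rich in G and C, at 66.3%, 75.3%, 83.7% and 67.7% in the order printed. Their numbers of CpG dinucleotides, in the same order, were 28, 43, 51 and 28. Each held GGGCGG, the core of the GC box, on one strand or the other, and only the Gm7160 window of these 4 also held CCAAT. The windows with the highest and with the lowest fold change thus shared these features.

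Across the 32 divergent members with a window of their own, the median G and C content was 70.0% and the median number of CpG dinucleotides was 32. In the 97 other members with a window these medians were 53.7% and 11, and over all 32851 windows of the table they were 52.7% and 7. The windows were searched on both strands for 8 motifs, which are spelled out where their shares are given except for the NRF1 palindrome. The GC box core GGGCGG was present in 78.1% of the divergent members' windows, in 41.2% of the other members' windows and in 35.7% of all windows. The TATA box TATAAA was present in 6.25%, 12.4% and 13.6% of the same sets, and the cell cycle element TTTGAA in 0 of the 32, in 11.3% and in 17.9%. The CCAAT box, at 37.5%, 42.3% and 37.4%, was about as frequent in each set. The E-box CACGTG was found in 15.6%, 5.15% and 7.15%, and the cyclic AMP response element TGACGTCA in 12.5%, 4.12% and 1.79%. The E2F site TTTCCCGC, a match to which can share bases with the GC box core, was found in 6.25%, 0% and 1.07%, and the NRF1 palindrome in 3.12%, 0% and 0.971%. The 44 windows of the coding partners had medians of 66.3% G and C and 27 CpG dinucleotides, with GGGCGG in 79.5%. They held TATAAA in 9.09%, TTTGAA in 4.55%, CCAAT in 31.8%, CACGTG in 13.6% and TGACGTCA in 9.09%. TTTCCCGC was in 11.4% and the NRF1 palindrome in 4.55% of them. The G and C content and the share with GGGCGG were thus not particular to the lincRNA side. These matches describe the letters of the windows and show no binding.

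The libraries held 34189709 and 31082753 counts assigned to genes for DMSO replicates 1 and 2, and 29817387 and 32956564 for YKL replicates 1 and 2. Of the 10 neuroendocrine markers looked up, 10 stood at 1 CPM or more in every library, and 2 examples chosen after their values were seen are Chga at 525 and 577 CPM in DMSO and at 780 and 664 CPM in YKL, and Syp at 174 and 184 CPM in DMSO and at 198 and 191 CPM in YKL. The summed level of 6 immune markers ran from 1.93 to 7.01 CPM with Cd3e at 0, that of 5 endothelial markers from 2.28 to 4.19 CPM with Cldn5 at 0, and that of 7 alveolar and airway markers from 7.27 to 16.1 CPM. The 6 fibroblast markers summed to 12.4 and 25.5 CPM in DMSO and to 46.0 and 17.7 CPM in YKL, nearly all of it Pdgfra. In bulk RNA, fewer cells of a type and less RNA per cell cannot be told apart. Counts of genes on opposite strands showed how overlaps were treated. Of 272 genes with every exonic base under exons of the other strand, 0 had a count, against 20705 of 38018 genes that shared no exonic base. The counts therefore ignored strand and left out shared bases, and 83 of the 282 members share exonic bases with another gene.

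The members were mostly rare transcripts. Their median level was 2.75 CPM, with 238 members at 1 to 10 CPM, 41 at 10 to 100 CPM and 3 at 100 CPM or more. Symbols of the form Gm and a number made up 132 of them and Riken symbols 104, so most had no name drawn from a function. Together the members took 0.236% and 0.334% of all counts in DMSO and 0.312% and 0.234% of them in YKL. Without Xist the shares were 0.203% and 0.257% in DMSO against 0.248% and 0.216% in YKL. In neither form did the groups separate. The 199 members that share no exonic base took 0.153% and 0.164% in DMSO against 0.179% and 0.168% in YKL. In that form both YKL libraries were above both DMSO libraries, by a small margin. The members nearest above the limit were AC152827.1, Gm26516 and AC154378.1 at 1.01, 1.012 and 1.016 CPM, and the lincRNAs nearest below it were Gm35019, Mir124a-1hg and Gm6961 at 0.997, 0.992 and 0.987 CPM. Some members passed through 1 group, since 24 had a DMSO mean under 1 CPM and 11 a YKL mean under 1 CPM.

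The comparison of YKL with DMSO asked how these transcripts respond to the inhibitor. By edgeR's quasi-likelihood test 5 lincRNAs rose and 0 fell, where a call needs an adjusted p (Benjamini-Hochberg, over all 16749 genes tested) below 0.05. The 5 that rose were 2810404F17Rik, 4933406P04Rik, Gm26917, Gm10605 and 4933404O12Rik. One of them, Gm10605, had a DMSO mean under 1 CPM and so passed the level limit only through YKL. Among the 247 members at 1 CPM or more in each group mean, 4 were called. The 5 made up 1.77% of the 282 members, all of which were tested, and the same rule called 593 genes or 3.54% of all genes tested, 351 of them higher (2.1%) and 242 lower (1.44%). At an unadjusted p under 0.05 stood 58 members (20.6%), 35 higher and 23 lower, and 21.2% of all genes, and in 52.3% of all genes the groups did not overlap. Both YKL libraries were above both DMSO libraries in 84 members (29.8%, all genes 27.0%) and below in 51 (18.1%, all genes 25.3%). Protein-coding genes of like level, at 1 to 10 CPM, were called in 2.03% of cases. The median log2 fold change of the members was 0.04, with 148 of 282 above 0, and scaling places the median of all genes at 0.00, so that a shift shared by all genes would not show.

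Other settings changed the number of members called and the number of all genes called together. With no filter on low counts 24 members were called, beside 5.79% of all genes. DESeq2's Wald test also called 24, of which 12 were higher and 12 lower, beside 11.0% of its genes. RLE scaling gave 5 beside 4.19%, and a filter of 1 CPM in 2 libraries 5 beside 3.73%. Fewer were called under total count scaling (2 beside 1.01%), upper quartile scaling (3 beside 1.98%) and with no robust prior (3 beside 1.41%). Leaving out DMSO replicate 1 gave 17 members beside 7.61% of genes and leaving out DMSO replicate 2 gave 38 beside 14%. Leaving out YKL replicate 1 or YKL replicate 2 gave 2 members each, beside 0.606% and 0.402%.

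**Figure D1:**
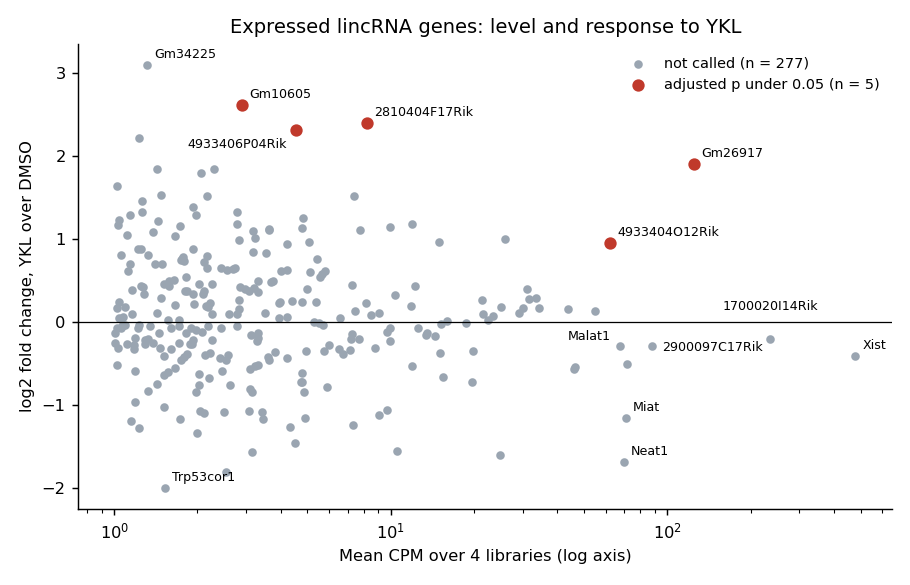
Each point is 1 of the 282 expressed lincRNA genes, with its mean CPM over the 4 libraries on a log axis and its log2 fold change of YKL over DMSO on the vertical axis. The 5 red points are the called members, all above 0, and the grey points were not called. Large changes of either sign among rare members, such as Gm34225 at 3.09 and Trp53cor1 at -2.0, did not pass the test.

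2810404F17Rik, an uncharacterised lincRNA at chr16:95806029-95808317, had the smallest adjusted p. Its TMM-scaled level, which is CPM with the library totals adjusted by a trimmed mean of ratios and is used for levels from here on, was 2.24 and 2.98 CPM in DMSO and 16.7 and 10.7 CPM in YKL. Both YKL libraries lay well above both DMSO libraries. The group means were 2.61 ± 0.524 and 13.7 ± 4.29 CPM (SD, n = 2), a log2 fold change of 2.39 (SE 0.39) with an edgeR adjusted p of 0.019. Without YKL replicate 1 the value was 2.03 and no longer called (adjusted p = 0.139), and under total count scaling it stood at the limit (adjusted p = 0.05). The nearest protein-coding gene, Ets2, an ETS family transcription factor, ends 84984 bases away and had a log2 fold change of -0.44 that was not called (adjusted p = 0.228).

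4933406P04Rik, at chr10:20310506-20312294, starts 175 bases from Bclaf1, which encodes a nuclear protein of transcription and splicing. This is the first of the promoter windows printed above. The lincRNA was at 1.61 and 1.43 CPM in DMSO and at 7.34 and 7.79 CPM in YKL. Within each group the libraries were close together, and the groups were far apart. The means of 1.52 ± 0.132 and 7.57 ± 0.317 CPM (SD, n = 2) gave a log2 fold change of 2.31 (SE 0.41) and an edgeR adjusted p of 0.0226. The fold change stayed near that value without YKL replicate 1 (2.36) or YKL replicate 2 (2.27), but the call was lost, at an adjusted p of 0.104 and 0.133. Bclaf1 itself had a log2 fold change of -0.50 and was not called (adjusted p = 0.18), so the 2 sides of this promoter had values of opposite sign.

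Gm26917, at chr17:39843013-39846341 on the plus strand, was the most abundant called lincRNA. Its levels were 54.1 and 52.4 CPM in DMSO and 135 and 262 CPM in YKL, so that the YKL libraries were both higher but differed from each other. The mean rose from 53.3 ± 1.24 to 198 ± 89.3 CPM (SD, n = 2), a log2 fold change of 1.90 (SE 0.31) with an edgeR adjusted p of 0.0267. Without DMSO replicate 1 the fold change was 1.92 and the adjusted p 0.0755. A gene annotated as ribosomal RNA, CT010467.1, lies beside it on the minus strand from 39846353 to 39848827, and its counts were 15337 and 17764 in DMSO against 21812 and 17447 in YKL. This gene took 0.0449% and 0.0572% of the counts in DMSO against 0.0732% and 0.0529% in YKL, so its groups overlapped, and its part in the value of Gm26917 was not tested. The nearest protein-coding gene, Esp38, had no count in any library.

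Gm10605, at chr7:99625936-99631711, overlaps Tpbgl on the opposite strand and shares 1168 exonic bases with it. It was at 0.508 and 1.11 CPM in DMSO and at 5.74 and 4.13 CPM in YKL, without overlap between the groups. The log2 fold change was 2.61 (SE 0.53) with an edgeR adjusted p of 0.0342, and it was 3.23 without DMSO replicate 2. Tpbgl had a log2 fold change of 1.67 (adjusted p = 0.285), and the shared bases count for neither gene. The call did not hold under total count scaling (adjusted p = 0.0661), under upper quartile scaling (0.0561), with no robust prior (0.0572), without YKL replicate 1 (0.17) or without YKL replicate 2 (0.103).

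4933404O12Rik, at chr5:136919146-136937112, lies 3742 bases downstream of Ift22, on the same strand. Ift22 encodes a small GTPase-like subunit of intraflagellar transport. The lincRNA stood at 38.6 and 46.2 CPM in DMSO and at 91.7 and 72.0 CPM in YKL, with both YKL libraries above both DMSO libraries. This was the smallest change among the called members, a log2 fold change of 0.95 (SE 0.20) with an edgeR adjusted p of 0.0392. Ift22 had a value of 0.79 in the same direction and was not called (adjusted p = 0.0805). The call of the lincRNA was lost in the same 5 alternatives as that of Gm10605, where its adjusted p was 0.0728 under total count scaling, 0.0589 under upper quartile scaling, 0.062 with no robust prior, 0.254 without YKL replicate 1 and 0.0955 without YKL replicate 2.

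**Figure D2:**
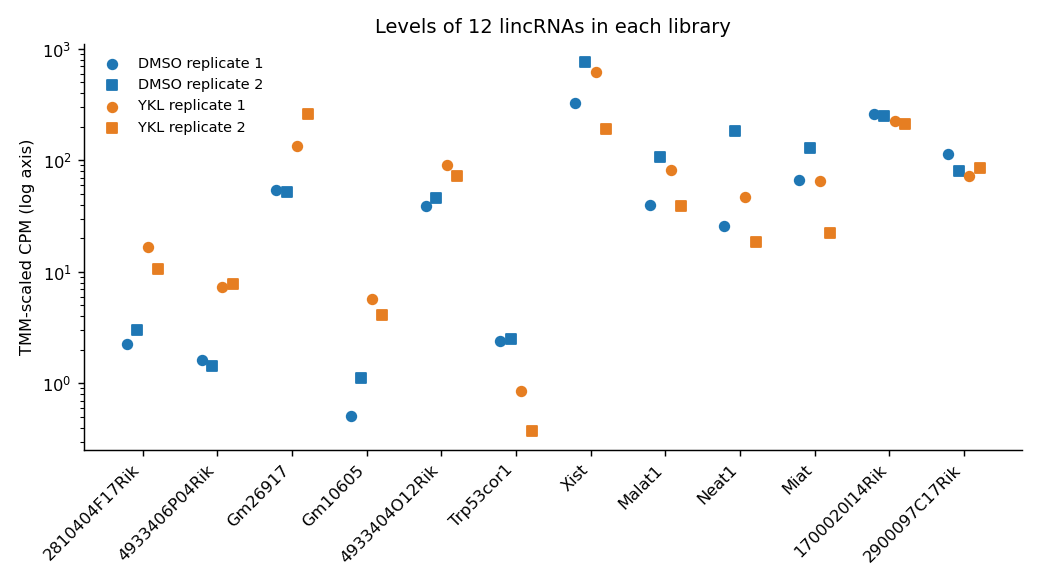
TMM-scaled CPM of 12 lincRNAs in each of the 4 libraries is shown on a log axis, with blue symbols for DMSO, orange symbols for YKL, circles for replicate 1 and squares for replicate 2. The 5 called lincRNAs on the left have both orange points above both blue points. Trp53cor1, Miat and 1700020I14Rik have both below, and for Xist, Malat1, Neat1 and 2900097C17Rik the blue and orange points overlap.

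The 5 largest fold changes that were not called came from rare members, with means from 1.23 to 2.29 CPM. Gm34225 had counts of 17 and 1 in DMSO against 59 and 90 in YKL, a log2 fold change of 3.09 (SE 0.89, adjusted p = 0.104). The single count in DMSO replicate 2 carries much of that value, which was 2.17 without this library and 6.05 without DMSO replicate 1 (edgeR adjusted p = 0.000406). Gm12031 had counts of 10, 18, 58 and 69 in the order DMSO replicates 1 and 2 and YKL replicates 1 and 2, with a log2 fold change of 2.21 (adjusted p = 0.064). AA543186, which shares bases with Man1b1, had counts of 16, 24, 73 and 67 and a value of 1.84 (adjusted p = 0.0869). Gm26694, with counts of 37, 28, 125 and 99, also had 1.84 (adjusted p = 0.0656), and it overlaps Metrn on the opposite strand, which had a value of 1.54 (adjusted p = 0.0917). In all 4 of these lincRNAs both YKL libraries were above both DMSO libraries, but each had a DMSO mean under 1 CPM and was a member only through its YKL level, which favours this direction. The nearest coding genes Insc, Actr2 and Man1b1 had log2 fold changes of 0.52, 0.36 and 0.28, and none of them was called.

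The fifth was Trp53cor1, listed in RefSeq with the synonym lincRNA-p21, a lincRNA that is known in mouse as a target of p53 and neighbours Cdkn1a, the gene of the CDK inhibitor p21. Its counts were 80 and 79 in DMSO against 26 and 12 in YKL. Both YKL libraries were below both DMSO libraries, and the mean level was 2.45 ± 0.0814 CPM in DMSO and 0.61 ± 0.337 CPM in YKL (SD, n = 2). The log2 fold change of -2.0 (SE 0.56) did not pass the edgeR test (adjusted p = 0.0839). It passed in some other fits, at an adjusted p of 0.0432 by DESeq2, 0.0145 with no filter on low counts, 0.0413 without DMSO replicate 1 and 0.0134 without DMSO replicate 2, and it did not pass without YKL replicate 1 (-2.70, adjusted p = 0.181) or YKL replicate 2 (-1.53, adjusted p = 0.47). With a YKL mean under 1 CPM it was a member only through DMSO. Cdkn1a, which starts 12018 bases away in the opposite orientation, rose with a log2 fold change of 1.39 (SE 0.24, adjusted p = 0.0219), a call that was lost under total count scaling (0.0506), without YKL replicate 1 (0.0587) and without YKL replicate 2 (0.0887). The lincRNA and its coding neighbour thus had values of opposite sign.

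On the lower side the edgeR test called 0 members. Other fits called some, namely 12 by DESeq2, 9 with no filter on low counts, 7 without DMSO replicate 1, 9 without DMSO replicate 2 and 1, Gm42047, without YKL replicate 1. The following were chosen after their values were seen. Gm42047 was at 34.9 and 39.6 CPM in DMSO and at 17.9 and 6.74 CPM in YKL, a log2 fold change of -1.60 (SE 0.45, edgeR adjusted p = 0.116), which was -2.46 and called without YKL replicate 1 (adjusted p = 0.00944) and -1.06 without YKL replicate 2. Gm35572 was at 19.4 and 12.2 CPM in DMSO and at 7.28 and 3.41 CPM in YKL, with -1.56 (SE 0.43, adjusted p = 0.0827), which was -2.21 without YKL replicate 1 and -1.12 without YKL replicate 2. In both, the YKL libraries were below the DMSO libraries, and YKL replicate 2 was the lowest. 5330416C01Rik had -1.24 (adjusted p = 0.116). F730016J06Rik had counts of 176 and 84 in DMSO against 37 and 34 in YKL and a value of -1.81 (adjusted p = 0.0831). 4732496C06Rik, downstream of Nucb2 on the same strand, had -1.46 (adjusted p = 0.0921), and Gm45151, which lies between them, had -1.34 (adjusted p = 0.167). The log2 fold change of Nucb2 itself was -0.32.

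Of 49 symbols on a list of lincRNAs with a known role, 14 were members. By edgeR 0 of these 14 were called, beside 3.54% of all genes, and 2 stood at an unadjusted p under 0.05, beside 21.2%. DESeq2 called Ftx and Trp53cor1, both lower, beside 11.0% of its genes, and 2 of 14 is close to that share. Xist was the most abundant member, at 328 and 756 CPM in DMSO and 624 and 191 CPM in YKL. Its spread within each group was wider than the difference between the groups, with a log2 fold change of -0.41 (SE 0.84, adjusted p = 0.848), which became 0.27 without DMSO replicate 2 and 0.20 without YKL replicate 2. Xist shares 2218 of its 17923 exonic bases with other genes, among them its antisense partner Tsix. Jpx and Ftx, lincRNAs of the X-inactivation centre that promote Xist expression in mouse, had log2 fold changes of -0.02 (SE 0.38) and -1.12 (SE 0.37, adjusted p = 0.126). Ftx stood at 9.89 and 14.9 CPM in DMSO and at 6.95 and 4.44 CPM in YKL. The value of Jpx was at or just above 0 under upper quartile scaling (0.00), without DMSO replicate 2 (0.05) and without YKL replicate 2 (0.13).

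Neat1 and Malat1, which are neighbours on chromosome 19, and Miat, a nuclear RNA best known from neurons, shared a pattern between libraries. Neat1 was at 25.7 and 185 CPM in DMSO and at 46.7 and 18.5 CPM in YKL. Malat1 was at 39.6 and 108 CPM in DMSO and at 81.6 and 38.8 CPM in YKL. Miat was at 66.7 and 128 CPM in DMSO and at 64.7 and 22.5 CPM in YKL. In each of them, as in Xist, DMSO replicate 2 was the highest library and YKL replicate 2 the lowest. This order was seen in 38 members, 13.5% of them, and in 8.5% of all genes tested. The log2 fold changes were -1.69 (SE 1.33) for Neat1, -0.29 (SE 0.68) for Malat1 and -1.16 (SE 0.68) for Miat, with adjusted p of 0.592, 0.867 and 0.442. Without DMSO replicate 2 Neat1 had 0.30, Malat1 0.56 and Miat -0.65, and without YKL replicate 2 Malat1 had 0.15 and Miat -0.59. No direction is given here for Neat1 and Malat1. Miat was below 0 in every fit run but was not called. Both its YKL libraries were below both DMSO libraries, though only by 64.7 against 66.7 CPM where they were closest. With YKL replicate 1 left out the value of Miat was -2.11 and that of Neat1 -2.50.

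DMSO replicate 2 was over 4-fold above DMSO replicate 1 in 3 members, Neat1, AC160336.1 and Gm30173, and the reverse was seen in 0. AC160336.1 had counts of 153 and 1252 in DMSO against 463 and 634 in YKL. Gm30173 had counts of 18 and 141 in DMSO against 68 and 101 in YKL. The share of members with this gap was 1.06%, close to the 0.879% of all tested genes that averaged 1 CPM or more. Below the level limit, Mir124a-1hg, the host of a neuronal microRNA, had counts of 6 and 110 in DMSO against 3 and 5 in YKL. The median gap between replicates on the log2 scale was 0.34 for members in both groups, 0.29 in DMSO and 0.22 in YKL for all genes tested, and 0.47 and 0.34 for protein-coding genes at 1 to 10 CPM, the level of most members.

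1700020I14Rik, named Oip5os1 in RefSeq and known as Cyrano, which triggers the decay of a microRNA, was at 258 and 250 CPM in DMSO and 226 and 212 CPM in YKL, with a log2 fold change of -0.21 (SE 0.17, adjusted p = 0.525). Although the groups did not overlap, the difference did not pass the test. 2900097C17Rik, named Norad in RefSeq, an RNA that binds Pumilio proteins, was at 114 and 80.3 CPM in DMSO and at 72.7 and 86.0 CPM in YKL. Here the groups overlapped, with a log2 fold change of -0.29 (SE 0.22, adjusted p = 0.485). Gm19990 was at 95.3 and 73.1 CPM in DMSO and at 60.7 and 57.7 CPM in YKL, a value of -0.51 (SE 0.20, adjusted p = 0.181). Its nearest coding gene, Mbip, a subunit of the ATAC histone acetyltransferase complex, fell by 0.90 on the log2 scale (adjusted p = 0.035), a call lost under total count scaling (0.0571), with no robust prior (0.056), without YKL replicate 1 (0.155) and without YKL replicate 2 (0.235). A further member beside Mbip, Gm47682, had -1.08 (adjusted p = 0.176). 1700001L05Rik was at 39.5 and 64.7 CPM in DMSO and at 57.9 and 56.2 CPM in YKL, with a log2 fold change of 0.13 that became -0.18 without DMSO replicate 1.

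Level per kilobase of exon puts the members in another order. Gm19990 came first at 58.5 CPM per kb, ahead of Bc1, a short neuronal RNA, at 39.9 and Gm26917 at 37.6. 1700020I14Rik followed at 28.5 and Xist at 26.7 CPM per kb. Neat1, with 20771 exonic bases, had 3.35 CPM per kb, and Malat1 had 9.65. These are levels per length, averaged over all 4 libraries, and not differences.

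The remaining known lincRNAs were rarer. Mir9-3hg, a host gene of the neuronal microRNA miR-9, was at 2.45 and 4.47 CPM in DMSO and at 4.28 and 9.22 CPM in YKL, with a log2 fold change of 0.96 (SE 0.49, adjusted p = 0.302). Rmst, a neural lincRNA, was at 4.07 and 1.46 CPM in DMSO and at 1.99 and 0.652 CPM in YKL, with -1.07 (SE 0.68, adjusted p = 0.418). In both of these the groups overlapped, and single libraries decided the values. Without DMSO replicate 2 Mir9-3hg had 1.43 (adjusted p = 0.0177) and Rmst -1.66 (adjusted p = 0.0138), while without YKL replicate 2 Mir9-3hg had 0.30 and without DMSO replicate 1 Rmst had -0.15. Mir17hg, which hosts an oncogenic microRNA cluster, had -0.81 (SE 0.55, adjusted p = 0.441), or -0.08 without DMSO replicate 2. Pvt1, the neighbour of Myc, had 0.37 (SE 0.47, adjusted p = 0.712), and Myc itself had 0.03. Epb41l4aos had -0.46 (adjusted p = 0.621), a value that became 0.07 without DMSO replicate 2.

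The members were grouped by their position relative to the nearest protein-coding gene. Of the 53 divergent members, 35 (66.0%) had a log2 fold change above 0, with a median of 0.26, and in 24 (45.3%) both YKL libraries were above both DMSO libraries. In the 229 other members these values were 113 (49.3%), -0.02 and 60 (26.2%), and over all genes tested 27.0% had both YKL libraries above. Both YKL libraries were below in 5 divergent members (9.43%), in 46 of the other members (20.1%) and in 25.3% of all genes. One divergent member, 4933406P04Rik, was called. These counts describe the members, whose classes were formed after the values had been seen, and no test of the difference between classes was made. The number above 0 ran from 29 of 53 without YKL replicate 1, with a median of 0.09, to 39 of 53 without DMSO replicate 2, with a median of 0.32.

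Several other divergent members had values above 0 that did not pass the test. Gm17586, 168 bases from Mafg, a small MAF transcription factor, had counts of 238 and 235 in DMSO against 473 and 570 in YKL, and a log2 fold change of 1.18 (SE 0.29, adjusted p = 0.0563). Mafg had -0.20. 1110006O24Rik, the second sequence above, had counts of 34 and 26 in DMSO against 110 and 90 in YKL, and a value of 1.79 (adjusted p = 0.0732), with a DMSO mean under 1 CPM. Its annotated start is 92 bases from that of Rab35, a GTPase of endosomal recycling, which had 0.21. Gm36584 beside Mex3b, an RNA-binding protein gene, had 1.52 (adjusted p = 0.109), and Gm10827 beside Ccdc28a had 1.18 (adjusted p = 0.156). In each of these 4 lincRNAs both YKL libraries were higher, and the coding partners had values from -0.20 to 0.21. These examples were chosen after their values had been seen.

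At the other end stood 2210008F06Rik, the third sequence above, with counts of 164 and 101 in DMSO against 71 and 71 in YKL and a log2 fold change of -0.84 (adjusted p = 0.312). Its partner Ankrd13b had -0.41. 9330104G04Rik, 431 bases from Dact3, had -0.78 (adjusted p = 0.307), and A430046D13Rik, 679 bases from Myl6b, had -0.73 (adjusted p = 0.387). AI480526, 527 bases from the histone methyltransferase gene Setd1b, had -0.72, the same value as Setd1b. Gm7160, the fourth sequence, had counts of 37 and 81 in DMSO against 40 and 34 in YKL and a value of -0.64 (adjusted p = 0.566). None of these decreases passed the test.

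**Figure D3:**
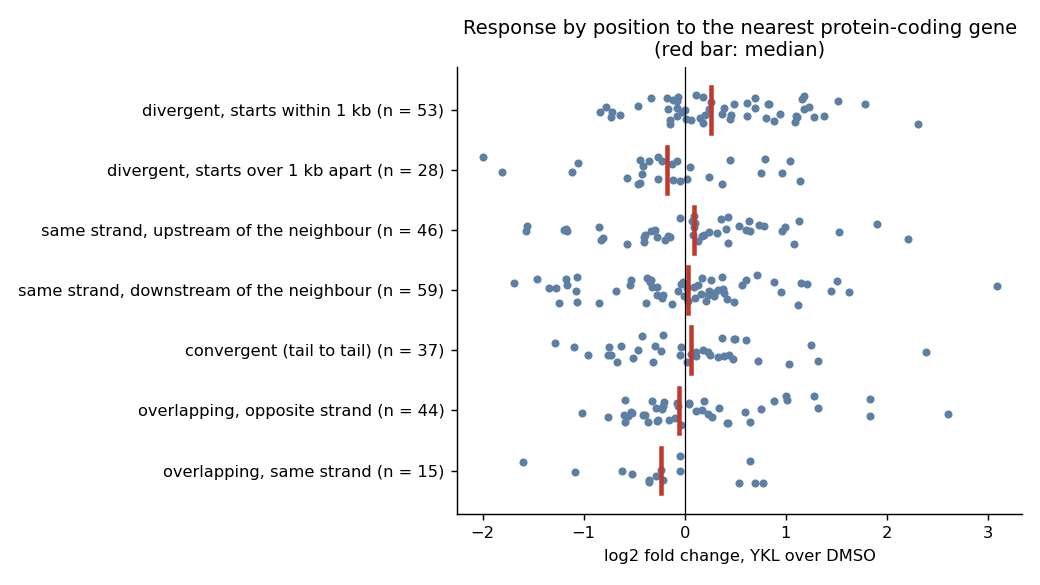
Each point is the log2 fold change, YKL over DMSO, of 1 expressed lincRNA, in rows by its position relative to the nearest protein-coding gene, and each red bar is the median of a row. The 53 members with divergent starts within 1 kb have the highest median, 0.26, and the 15 that overlap a coding gene on the same strand have the lowest, -0.23.

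The other classes lay nearer to 0 or below it. Members upstream of their neighbour on the same strand had a median of 0.10 over 46 genes, tail-to-tail members 0.06 over 37, and members downstream on the same strand 0.03 over 59. Members overlapping a coding gene on the opposite strand had -0.05 over 44 genes. The 28 head-to-head members with starts over 1 kb apart had a median of -0.18, with 10 above 0. Members that share exonic bases had a median of -0.14 over 83 genes, and members that share none had 0.11 over 199.

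Level, the rule and the single libraries each moved with the pattern of the divergent members. Protein-coding genes at 1 to 2 CPM had a median of 0.22, with 60.2% above 0, and those at 2 to 5 CPM had 0.08, with 53.9% above 0. Divergent members at 1 to 2 CPM had a median of 0.57, with 12 of 16 above 0, and at 2 to 5 CPM 0.46, with 18 of 25. At 5 to 10 CPM only 1 of 5 was above 0, and at 10 to 50 CPM 4 of 7. With the 46 that had a DMSO mean of at least 1 CPM the median was 0.18, with 28 above 0. The medians of the log2 levels centred over the 4 libraries were -0.25 and -0.04 in DMSO against 0.30 and 0.02 in YKL, so DMSO replicate 1 and YKL replicate 1 stood farthest apart. The part of level and of these libraries in the pattern was not tested. A separate annotated biotype, the bidirectional promoter lncRNAs, holds no member, and its 49 genes at 1 CPM or more had a median of 0.29, with 36 above 0 (73.5%).

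The coding partners of the divergent members had values on either side of 0. Of these 53 partners, 23 had a log2 fold change above 0, with a median of -0.09. By edgeR 2 (3.77%) were called, close to the 3.54% of all genes tested. Negr1, which encodes a neuronal adhesion protein, rose by 0.87 on the log2 scale (adjusted p = 0.0346), and Aldh18a1, an enzyme of proline synthesis, fell by 1.58 (adjusted p = 0.00795). Their lincRNAs 4930570G19Rik and Gm27042 had 0.18 and -0.16. The sign of a lincRNA matched that of its partner in 33 of the 53 pairs (62.3%), with r = 0.18 across pairs.

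A nearest protein-coding gene that was itself tested was at hand for 242 members, and in 155 pairs (64.0%) both log2 fold changes had the same sign. With each library left out in turn, this share ran from 56.2% to 64.5%. Where the lincRNA lies downstream on the same strand, without overlap, the signs matched in 40 of 51 pairs (78.4%), with a Pearson r of 0.49 (Spearman rho 0.53). Upstream on the same strand it was 17 of 35 (48.6%) with r = -0.03. Pairs overlapping on opposite strands matched in 26 of 38 (68.4%) with r = 0.67, and pairs overlapping on the same strand in 9 of 9 with r = 0.77. Divided another way, without regard to strand, the overlapping pairs matched in 30 of the 38 that share exonic bases (78.9%, r = 0.7). Of the 9 that share none, 5 matched (55.6%, r = 0.67). Downstream pairs matched in 19 of 25 within 5 kb and in 21 of 26 beyond 5 kb. The correlations are across gene pairs measured in the same 4 libraries, so the pairs are not independent and no p is given.

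**Figure D4:**
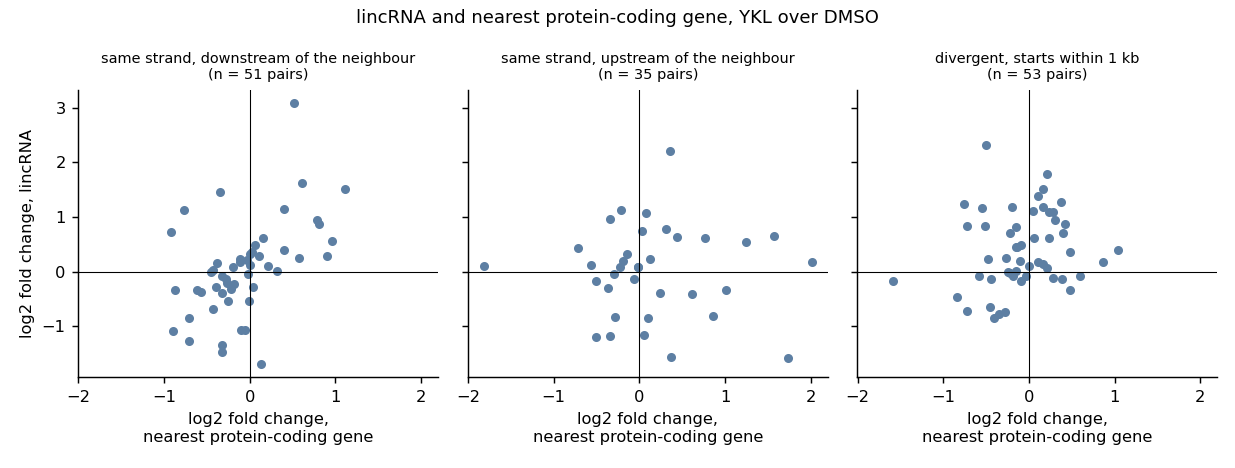
Each point is a lincRNA and its nearest protein-coding gene, with the log2 fold change, YKL over DMSO, of the coding gene on the horizontal axis and that of the lincRNA on the vertical axis. Points in the left panel, lincRNAs downstream on the same strand, show a loose positive relation (r = 0.49). Those in the middle panel, upstream on the same strand, show almost none (r = -0.03), and divergent pairs lie between (r = 0.18).

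A called neighbour was found for 17 of the 242 members with a tested neighbour, where 3.54% of all genes tested were called. In 11 of these 17 pairs the lincRNA had the sign of its neighbour. The 17 members have 15 such neighbours, of which 3 were still called under total count scaling, 9 under upper quartile scaling and 5 with no robust prior. Leaving out either YKL library left 3 called. Pcsk6, Aldh18a1 and Fam81a were called in every fit run. Pcsk6, a proprotein convertase, rose by 1.74 on the log2 scale (adjusted p = 0.00795) while 1810008I18Rik, 55285 bases upstream of it, had -1.57 (adjusted p = 0.0998). Fam81a rose by 1.52 (adjusted p = 0.0101), and 2210414F02Rik had -0.96 (adjusted p = 0.419). Vwa1, an extracellular matrix protein gene, rose by 1.42 (adjusted p = 0.0286), and the overlapping Gm26840 had 1.28 (adjusted p = 0.208). Nacc2, a transcriptional repressor with 2 neighbouring members, rose by 2.01 (adjusted p = 0.0267), and Tmem250-ps and 1810012K08Rik had 0.17 and -0.08. Hes1, a repressor of the Notch pathway that represses neuroendocrine genes, rose by 1.25 at the limit (adjusted p = 0.05), and 4632428C04Rik, 42954 bases upstream, had 0.54. Scarb1 and Slfn9 rose by 0.90 and 0.96 (both adjusted p = 0.0322), and Gm32585 and 1190001M18Rik downstream of them had 0.29 and 0.57. By edgeR 0 of the 17 lincRNAs were called, beside 3.54% of all genes. At an unadjusted p under 0.05 stood 6 of them, beside 21.2% of all genes. DESeq2 called 1810008I18Rik and Trp53cor1, both lower, beside 11.0% of its genes, and 2 of 17 is close to that share.

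The genes of proteins that work with lincRNAs or remove them were called in 1 case over 6 lists, to be read beside 3.54% of all genes by edgeR, 11.0% by DESeq2 and 21.2% at an unadjusted p under 0.05. Of the 14 genes tested for Xist-binding and X-inactivation proteins, Ezh2, the methyltransferase of Polycomb repressive complex 2, rose from 185 ± 12.6 to 311 ± 16.3 CPM (SD, n = 2), a log2 fold change of 0.75 with an adjusted p of 0.0497, and the list's median was 0.00. RLE, total count and upper quartile scaling each ended that call, as did no robust prior. Leaving out DMSO replicate 2 gave an adjusted p of 0.0584, and leaving out YKL replicate 1 or 2 gave 0.287 or 0.221. Of the 12 paraspeckle protein genes edgeR called 0, with a median of -0.34, but 6 were lower at an unadjusted p under 0.05 and DESeq2 called 4 lower, Cpsf6, Dazap1, Nono and Rbm14. Nono, the most abundant of these and a core paraspeckle protein, was at 1100 and 1080 CPM in DMSO and at 584 and 720 CPM in YKL, without overlap, and its log2 fold change was -0.74 (adjusted p = 0.0695). The 4 partners of Norad had a median of -0.45 with 0 called, 2 at an unadjusted p under 0.05 and 1, Rbmx, called lower by DESeq2. The most abundant, Pum2, had -0.16. The 19 genes of the nuclear exosome and its adaptors had a median of -0.14 with 0 called by either tool and 2 at an unadjusted p under 0.05, and the most abundant, Exosc10, had -0.33. The 13 subunits of Integrator, which cuts nascent transcripts, had a median of 0.04 with 0 called by either tool and 0 at an unadjusted p under 0.05. Ints7 had -0.36. The 17 cleavage, polyadenylation and termination factors had a median of -0.17 with 0 called by edgeR, 2 at an unadjusted p under 0.05 and 1, Cpsf7, called lower by DESeq2. Cstf2 had 0.18. The median over all genes tested was 0.00.

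In the authors' deposited table, made with DESeq2, 281 members were found, 38 of them higher and 30 lower at an adjusted p under 0.05. That was 24.2% of the members, against 27.8% of the 15908 genes of the authors' deposited table. The sign of the fold change was the same as that from edgeR in 275 of the 281. The authors' deposited table gives log2 fold changes of 1.98 for 2810404F17Rik, 1.87 for 4933406P04Rik, 1.23 for Gm26917, 1.90 for Gm10605 and 0.86 for 4933404O12Rik, all called there. For Trp53cor1 the authors' deposited table gives -1.42 with an adjusted p of 9.16e-05.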

How the data were processed

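The authors deposited raw counts per gene for 4 bulk RNA-seq libraries of RPP631 cells. Per the submitters' processing notes, STAR 2.5.2b (genome mm10) and featureCounts were used. The library type and the strand setting are not given in the sources used here. The authors' deposited table of their own DESeq2 comparison holds a mean normalized signal, a log2 fold change with its error, a test score and p-values. It was used only for comparison. Biotypes came from the deposited gene annotation and coordinates, 1-based on mm10, from the deposited count table. Promoter sequences came from RefSeq (GRCm38.p6).

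Counts were tested with edgeR 4.0.16 in R 4.3.3, with TMM scaling, filterByExpr (minimum count 10, minimum total 15) and glmQLFTest (robust prior, 2 residual degrees of freedom). Each p-value was adjusted by Benjamini-Hochberg over 16749 genes. The biological coefficient of variation was 25%. Standard errors were taken from the F statistic as |log2 fold change| over its square root. The procedure was tested on simulated data. Members, gene lists and tests were chosen with earlier results of these data known, and position classes after the values here were seen. Named in full were all called members, the 10 most abundant, the 5 largest changes not called, the known lincRNAs, the nearest coding genes of the first 3 sets, the 3 lincRNAs on either side of 1 CPM and, per list, the gene with the smallest p in each direction or, with no call, the most abundant. Members not named are given by counts and ranges, and not every result is reported here. Other genes were chosen after their values were seen. Alternatives were other scalings, other filters, no robust prior, the replicate number as a block, each library left out, DESeq2 1.42.0, an adjusted p under 0.01 and other limits for membership. Figures were drawn with matplotlib 3.10.9.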

Additional observations from a re-analysis of the deposited data

How the results depend on the processing

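The number of called members, 5 of 282, and of called genes, 593, depended on the settings. Under total count scaling 2 members and 169 genes were called, under upper quartile scaling 3 and 331, with no robust prior 3 and 236, and at an adjusted p under 0.01 0 members and 30 genes. With no filter on low counts the numbers were 24 and 1740, and by DESeq2 24 and 1588. With each library left out in turn, members called ran from 2 to 38 and genes from 71 to 2453. Called members numbered 17 without DMSO replicate 1, 38 without DMSO replicate 2 and 2 without either YKL library. The lone library of a group was then assumed to vary like the other group. With the replicate number as a block 17 members and 1387 genes were called, among them Trp53cor1 (adjusted p = 0.0344). The labels' numbers share no stated origin, and the correlation of the deviations of replicate 1 in both groups was 0.14 over 16749 genes, with only 2 pairs, so the block is given only here.

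A limit of 2 CPM kept 178 members in place of 282, with the same number called. Neighbours within 5 kb had the same sign in 101 of 150 pairs (67.3%), and pairs that share no exonic base in 125 of 204 (61.3%). Over all 242 pairs the share was 64.0%. It was 61.2% without DMSO replicate 1 and 56.2% without DMSO replicate 2. Without YKL replicate 1 it was 64.5%, and without YKL replicate 2 58.7%. Of 480 values of named genes under alternatives, 412 kept their direction and side of the threshold, 22 lost their call, 36 gained one and 10 changed sign. With each library left out, those that changed sign ran from -1.5 to 0.27 for Xist, -2.50 to 0.30 for Neat1, -0.92 to 0.56 for Malat1, -0.18 to 0.49 for 1700001L05Rik, -0.19 to 0.13 for Jpx and -0.87 to 0.07 for Epb41l4aos, and Jpx was at 0.00 under upper quartile scaling. DMSO replicate 1 or 2 or YKL replicate 2 was the library left out where the sign changed. The count of divergent members above 0 stayed between 29 and 39 of 53 in 12 fits chosen after seeing the data. The causes of these changes were not tested. Members near 1 CPM rest on about 30 counts a library, which limits what 2 libraries a group can show.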
